A study of Mus musculus with 12 samples.

Results

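Interferon-induced genes were followed across 12 RNA-seq libraries labelled as mouse regulatory T cells (Treg, the Foxp3+ CD4+ T cells that restrain immune responses). The set was a list of 39 named genes, all of which were rows of the count table among its 55413 genes: 5 transcription factors, 9 genes whose products act on RNA, 9 other antiviral genes, 2 nucleic acid sensors, 8 guanylate-binding proteins and 6 immunity-related GTPases. All 39 had counts in every library and all 39 were among the 15705 genes tested. The lymph node Treg group (n = 4) was total Treg sorted from lymph nodes of mice without a tumor, with no treatment. The tumor pTreg group (n = 3) and the tumor tTreg group (n = 5) were sorted from Hepa1-6 tumors, a mouse hepatoma line, 18 days after inoculation, in TCRbd-/- hosts, which lack T cells of their own. Those hosts had first received tTreg (thymus-derived Treg) of CD45.1 Foxp3YFP-cre mice together with conventional Foxp3- CD4+ and CD8+ T cells of CD45.2 Foxp3YFP-cre mice, at 1 to 10 to 8, and the tumor cells followed 3 days later. The pTreg (peripherally induced Treg) name is that of the sample titles. The labels give every library the genotype entry Foxp3YFP-cre and TCRbd-/-, do not say whether the mice without a tumor received transferred cells, and give neither age nor sex nor whether the libraries of a group came from separate mice. The p-values below therefore measure the spread between libraries, which may be technical.

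As background, type I interferons signal through the receptor chains Ifnar1 and Ifnar2 and the kinases Jak1 and Tyk2 to a complex that holds Stat2 and Irf9 and binds a DNA element called ISRE. Interferon-gamma signals through Ifngr1, Ifngr2, Jak1 and Jak2 to binding at an element called GAS, and raises Irf1 and many GTPases of the guanylate-binding and immunity-related families. The induced proteins degrade, bind or sense foreign nucleic acid, block virus release or attack the vacuoles of intracellular microbes. T cells, macrophages, dendritic cells and tumor cells can all express these genes.

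Markers of T cells and of other cell types differed between the groups, and their levels are given here for reading the values below. Values are CPM, a gene's counts scaled to a common library total, given as mean ± SD over libraries. Fold changes come from a fit that also applies TMM factors, which trim extreme genes to set library sizes. These factors were 1.04 to 1.05 in lymph node libraries and 0.97 to 0.99 in tumor libraries. Fitted ratios of tumor to lymph node are therefore somewhat higher than those of the printed CPM, which matters for small changes. The summed level of 18 pan-T cell genes was 6742 ± 73.6 CPM in lymph node Treg, 1354 ± 11.8 in pTreg and 136 ± 3.29 in tTreg of the tumor. The summed level of 14 macrophage and monocyte genes was 56.9 ± 4.07, 10602 ± 33.2 and 10668 ± 212 CPM, with none of the 14 at 0 in any group, and that of 10 hepatoma genes was 8.49 ± 0.868, 5528 ± 187 and 8093 ± 144 CPM, with Serpina1a at 0 in both tumor groups. The 7 genes of dendritic and plasmacytoid cells summed to 17.7 ± 0.569, 297 ± 0.875 and 341 ± 7.60 CPM. By the test given below, 4 of the 7 were higher and 2 lower in pTreg than in lymph node Treg. In tTreg 4 were higher and 1 lower. Of all tested genes, 47.6% and 39.8% were called higher and lower in pTreg, and 48.1% and 42.3% in tTreg. The sum of the 7 therefore does not stand for each of them. The 6 fibroblast genes summed to 2.51 ± 0.681, 139 ± 11.4 and 725 ± 49.6 CPM, with 3 of them at 0 in lymph node Treg. The 4 natural killer (NK) cell genes summed to 2.45 ± 0.445, 21.9 ± 0.709 and 1.57 ± 0.325 CPM, with Ncr1 at 0 in the pTreg libraries. Foxp3 itself was at 441 ± 11.1, 20.3 ± 0.583 and 8.74 ± 0.478 CPM. In bulk libraries, fewer cells of a type and less RNA per cell cannot be told apart, and the part of these other cells in any member's value was not tested. A library's total ran from 14573864 to 17323894 counts in the lymph node group, from 17964262 to 18180959 in the pTreg group and from 18107272 to 18510923 in the tTreg group.

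Promoter sequences show which elements the members carry. RefSeq windows on build GRCm38.p6, 250 bases before and 50 after a start, were present for 28 of the 39 genes, as 35 windows. ISRE was searched as GAAA followed by GAAA with any 2 bases between them, and GAS as TTC followed by GAA with any 3 bases between them, on both strands, with overlaps allowed. ISRE letters stood in 18 of the 35 windows (51.4%) against 3.44% of all 32851 windows, and GAS letters in 12 (34.3%) against 8.30%. Of the 28 genes, 8 held both, 10 held ISRE alone, 4 held GAS alone and 6 held neither: Irf9, Irf7, Oasl1, Oasl2, Cmpk2 and Ifi44. A match describes letters and is not a measured binding site, and no match says only that these letters were not in this window. The sequences below run 5′ to 3′ on the gene's strand, with motif letters in capitals. The first 4 belong to genes that were higher in both tumor groups than in lymph node Treg, and the first of them, Isg15 (a ubiquitin-like modifier), holds overlapping ISRE matches.
Isg15 (chr4:156200819-156200906, minus strand): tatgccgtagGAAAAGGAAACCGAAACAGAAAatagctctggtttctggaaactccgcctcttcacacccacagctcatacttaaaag
Oas1a (chr5:120907526-120907635, minus strand): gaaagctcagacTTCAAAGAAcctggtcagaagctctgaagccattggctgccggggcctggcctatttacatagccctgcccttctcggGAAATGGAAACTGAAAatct
Rsad2 (chr12:26456453-26456582, minus strand): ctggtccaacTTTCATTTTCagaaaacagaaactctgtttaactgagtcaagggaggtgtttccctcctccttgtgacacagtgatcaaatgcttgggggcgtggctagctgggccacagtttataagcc
Gbp3 (chr3:142559974-142560024, plus strand): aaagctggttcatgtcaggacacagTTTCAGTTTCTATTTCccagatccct
The next 2, of an RNA-binding and of a guanylate-binding gene that were lower in both tumor groups, hold the same letters.
Ifit3 (chr19:34583364-34583528, plus strand): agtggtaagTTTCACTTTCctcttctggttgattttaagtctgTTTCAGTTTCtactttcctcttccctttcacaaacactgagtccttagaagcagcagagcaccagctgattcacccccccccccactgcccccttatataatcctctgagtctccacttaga
Gbp7 (chr3:142530227-142530335, plus strand): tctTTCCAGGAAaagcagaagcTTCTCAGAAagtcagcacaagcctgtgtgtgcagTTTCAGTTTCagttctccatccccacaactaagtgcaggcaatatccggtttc
The 4 immunity-related GTPases below are shown because a GAS match is followed, with 11 bases from start to start, by an ISRE match.
Igtp (chr11:58199496-58199555, plus strand): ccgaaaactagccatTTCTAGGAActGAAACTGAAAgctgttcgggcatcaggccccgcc
Irgm2 (chr11:58214892-58214976, plus strand): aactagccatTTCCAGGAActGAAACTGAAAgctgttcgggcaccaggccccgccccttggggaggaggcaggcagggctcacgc
Tgtp1 (chr11:48992266-48992346, minus strand): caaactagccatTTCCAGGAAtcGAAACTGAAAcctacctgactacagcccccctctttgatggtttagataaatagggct
Tgtp2 (chr11:49064213-49064307, minus strand): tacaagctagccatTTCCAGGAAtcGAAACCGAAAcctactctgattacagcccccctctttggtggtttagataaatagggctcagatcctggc
Of 149 windows in the genome table that held both motifs, 5 had this spacing in this order: these 4 and Gm12185, a gene overlapping Tgtp1. The spacing was taken from these same members, so the count describes them and does not test how particular it is. The 5 are not independent either, since Tgtp1 and Tgtp2 are near-identical copies and the printed Igtp and Irgm2 stretches are much alike. The last pair are transcription factors with GAS letters and no ISRE letters in the window: Irf1, which was not called between tumor pTreg and lymph node Treg, and Irf8, which was higher there.
Irf1 (chr11:53769914-53770013, plus strand): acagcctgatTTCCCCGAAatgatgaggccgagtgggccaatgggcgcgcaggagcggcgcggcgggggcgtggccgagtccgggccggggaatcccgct
Irf8 (chr8:120736178-120736357, plus strand): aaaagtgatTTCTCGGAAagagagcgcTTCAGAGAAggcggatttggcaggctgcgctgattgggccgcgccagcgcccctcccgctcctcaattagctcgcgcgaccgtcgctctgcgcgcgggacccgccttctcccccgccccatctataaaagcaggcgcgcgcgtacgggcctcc

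**Figure D1:**
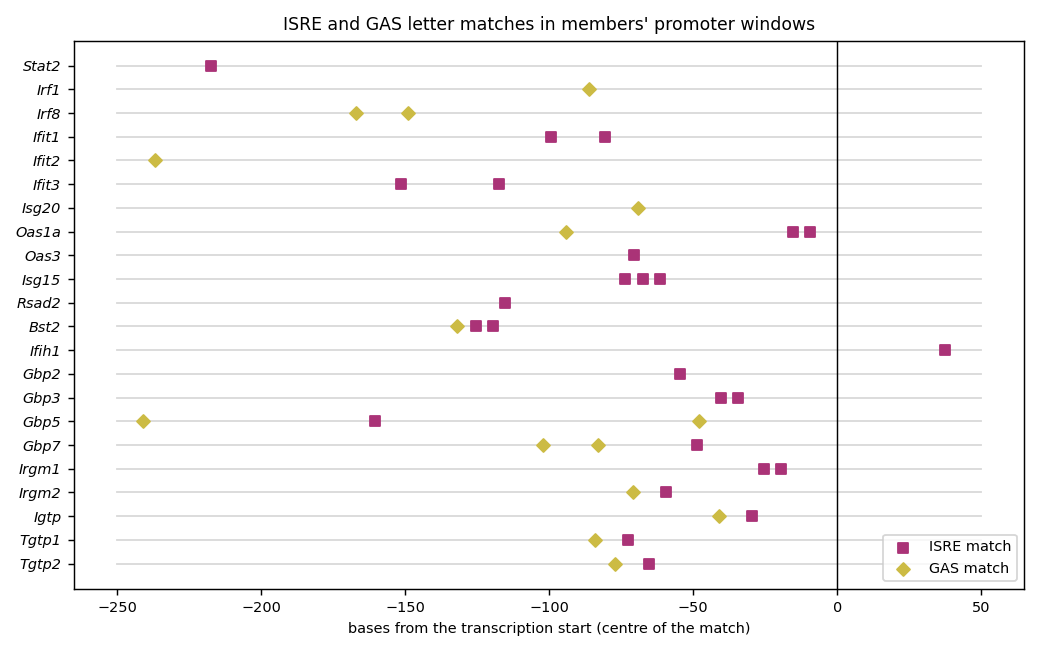
Positions of ISRE (squares) and GAS (diamonds) letter matches in the RefSeq windows of the 22 members with at least 1 match, as bases from the transcription start, with the grey line marking the window searched. The ISRE match of Ifih1 lies after the start and those of the other genes before it, and Igtp, Irgm2, Tgtp1 and Tgtp2 each hold a GAS and an ISRE match that start 11 bases apart.

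The members did not move as 1 group between lymph node and tumor. In tumor pTreg against lymph node Treg, 12 of 39 members were higher and 25 lower (edgeR quasi-likelihood test, Benjamini-Hochberg adjusted p under 0.05 over all tested genes), where 47.6% of all tested genes were called higher and 39.8% lower. In tumor tTreg against lymph node Treg, 12 were higher and 27 lower, where 48.1% of all tested genes were called higher and 42.3% lower. The median member's log2 fold change was -0.65 in each of these comparisons, beside 0.12 and 0.10 for all tested genes. Changes of at least 2-fold were called higher for 9 members and lower for 16 in tumor pTreg, where 30% and 17.7% of all tested genes were so called. In tumor tTreg the numbers were 10 and 16, where 31% and 22.5% of all genes were so called. Both comparisons share the lymph node libraries. These directions are on the CPM scale with TMM factors, and members lower in the tumor on that scale were higher per pan-T count, the second scale given further on. On that second scale 91.5% and 96.8% of all tested genes were called higher in pTreg and tTreg than in lymph node Treg. The median over all genes dropped to 0.01 and 0.00 when library totals alone set the scale in place of TMM factors, which trim extreme genes to set library sizes.

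Between the tumor groups, members were called in both directions on the CPM scale, and none by 2-fold. In tumor pTreg against tumor tTreg, 16 of 39 members were called higher and 12 lower, where 26.8% of all tested genes were called higher and 25.3% lower. No member reached a 2-fold change, where 7.98% of all tested genes were called at that size, and the median size of change was 0.22 on the log2 scale for members and 0.21 for all genes. Per pan-T count all 39 were lower in pTreg, by 5.61-fold to 12.7-fold, as were 97% of all tested genes. Log2 fold changes ran from -0.34 for Oasl1 to 0.83 for Oas3, with a median of 0.03 beside -0.01 over all tested genes. Over the same comparison the 18 pan-T genes were higher in pTreg by a median of 10.9-fold, with log2 fold changes from 2.24 to 4.07. The 14 macrophage and monocyte genes had a median log2 fold change of -0.01 and ranged from -0.21 to 0.20. The 5 hepatoma genes tested had a median of -0.54, and the 6 fibroblast genes one of -2.91.

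**Figure D2:**
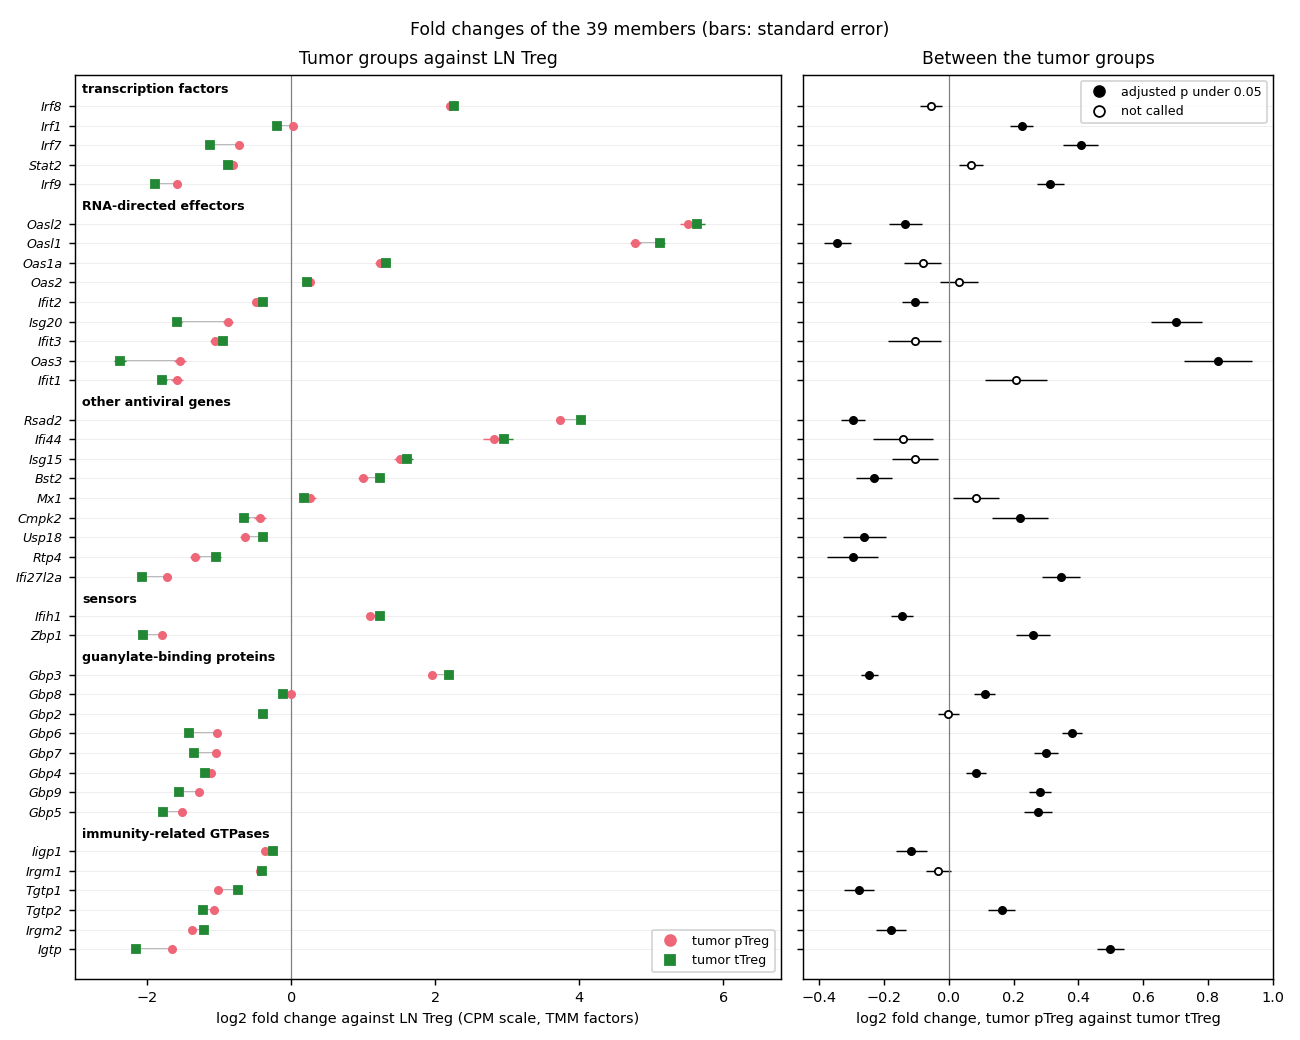
Log2 fold change of each member, grouped by role, with standard errors from the edgeR fit: on the left each tumor group against lymph node Treg, on the right tumor pTreg against tumor tTreg. On the left the values run from -2.38 (Oas3, tTreg) to 5.64 (Oasl2, tTreg) and the markers of both tumor groups lie close together, while on the right every value lies between -0.34 and 0.83 (filled points passed the test).

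The transcription factors of the pathway went in different directions. Irf8, a factor best known from myeloid and B lineage cells, was higher in both tumor groups than in lymph node Treg, while Irf9 and Stat2, partners in the ISRE-binding complex, and Irf7, which drives type I interferon genes, were lower in both. The 4 lymph node libraries held Irf8 at 32.1, 27.6, 30.2 and 30.3 CPM, the 3 pTreg libraries at 132, 132 and 125 and the 5 tTreg libraries at 138, 137, 140.2, 127 and 136. No tumor library overlapped a lymph node library, and the 2 tumor groups overlapped each other. Irf8 was 4.63-fold higher in tumor pTreg (log2 2.21 ± 0.044 SE, adjusted p = 6.31e-27) and 4.81-fold higher in tumor tTreg (adjusted p = 2.27e-28) than in lymph node Treg. Its log2 difference between the tumor groups, -0.06 ± 0.035 (SE), did not pass the test (adjusted p = 0.194).

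Irf7 counted 76.8, 81.2, 85.8 and 82.2 CPM in the lymph node libraries, 42.1, 50.6 and 45.3 in the pTreg libraries and 37.2, 34.4, 37.3, 32.5 and 33.1 in the tTreg libraries. The 3 groups did not overlap, with lymph node Treg highest and tumor tTreg lowest. Its level was 1.33-fold higher in tumor pTreg than in tTreg (adjusted p = 3.74e-07) and fell by 1.13 on the log2 scale from lymph node Treg to tumor tTreg (adjusted p = 3.43e-19). Irf9 followed the same order, at 169.7 ± 4.50 CPM in lymph node Treg, 52.6 ± 2.09 in pTreg and 42.6 ± 1.62 in tTreg of the tumor, and fell by 1.59 and 1.90 on the log2 scale in pTreg and tTreg (adjusted p = 5.76e-25 and 1.37e-28). Stat2 stood at 119.8 ± 3.33 CPM in lymph node Treg, 63.7 ± 0.868 in pTreg and 61.1 ± 2.02 in tTreg of the tumor, a fall by 0.81 and 0.88 on the log2 scale, with no call between the tumor groups (log2 0.07 ± 0.037 SE, adjusted p = 0.128).

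Irf1, the first-wave factor of the interferon-gamma response, was not called between lymph node Treg and tumor pTreg. Irf1 was at 259, 247, 278 and 262 CPM in the 4 lymph node libraries, 248, 255 and 240.1 in the 3 pTreg libraries and 205, 206, 221, 219.8 and 213 in the 5 tTreg libraries. The pTreg and lymph node values overlapped, and every tTreg value lay below both. Its log2 difference between tumor pTreg and lymph node Treg was 0.03 ± 0.037 (SE, adjusted p = 0.52), and with library totals alone as the scale it was -0.08 (adjusted p = 0.044), the other direction. Against tumor tTreg, Irf1 was 1.17-fold higher in pTreg (adjusted p = 5.04e-06).

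**Figure D3:**
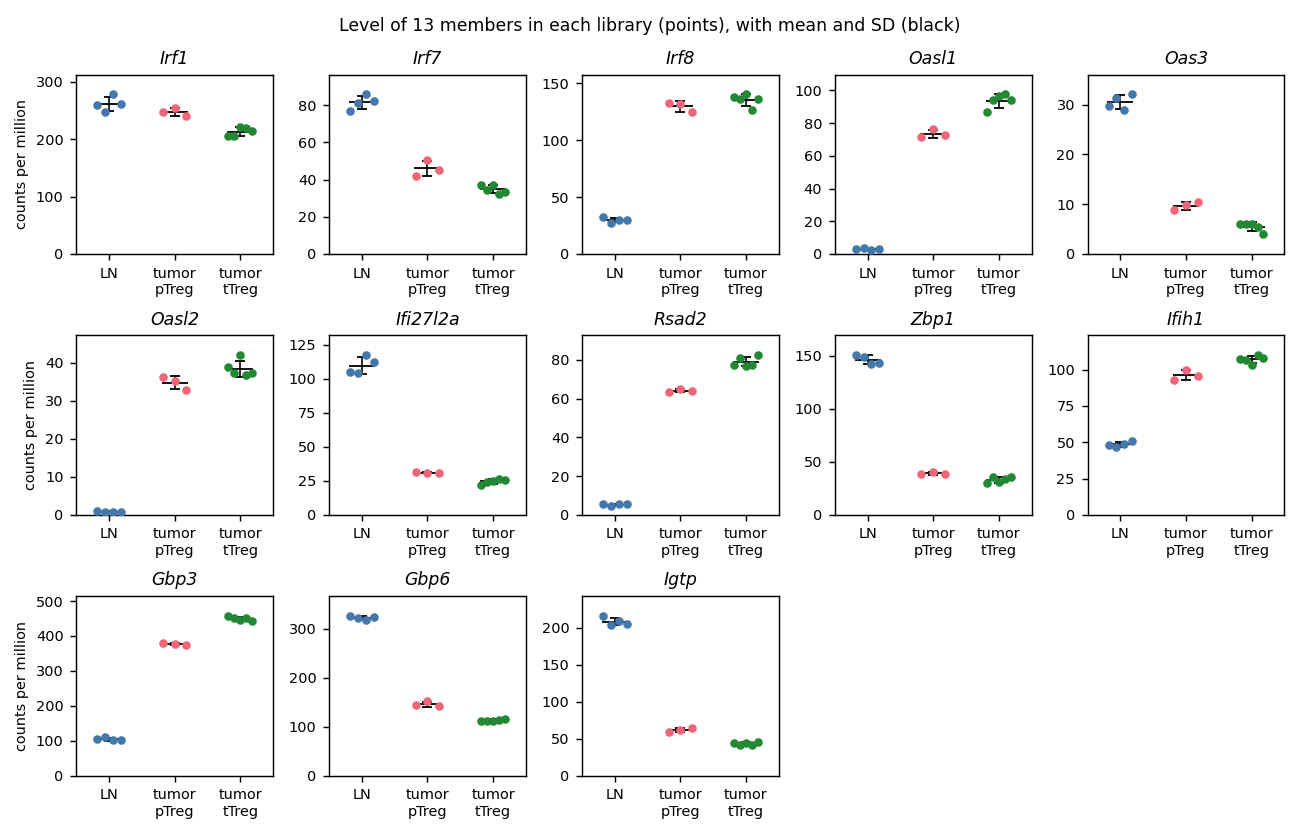
CPM of 13 members, 1 panel a gene with an axis from 0: each point is a library, and black bars are the group mean and SD, for lymph node Treg (n = 4), pTreg (n = 3) and tTreg (n = 5) of the tumor. Oasl1, Oasl2 and Rsad2 rise from means of 2.90, 0.815 and 5.14 CPM in lymph node Treg to 73.5, 34.8 and 64.0 CPM in tumor pTreg, while Oas3, Ifi27l2a, Zbp1 and Igtp fall.

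Among the genes that act on RNA, members of a single family split. Of these 9 genes, 4 were higher and 5 lower in each tumor group than in lymph node Treg, where 47.6% and 48.1% of all tested genes were called higher in pTreg and tTreg. All 9 were higher per pan-T count, as were 91.5% and 96.8% of all tested genes. Oasl1 and Oasl2, the oligoadenylate synthetase-like genes, stand side by side on chr5:114923240-114937915 and chr5:114896936-114912234 (GENCODE vM21, GRCm38, both plus strand) and showed the members' largest rises. Oasl1 represses Irf7 translation. The 4 lymph node libraries held Oasl1 at 2.94, 3.43, 2.48 and 2.73 CPM, the 3 pTreg libraries at 71.8, 76.2 and 72.6 and the 5 tTreg libraries at 86.6, 94.4, 96.6, 97.5 and 93.9. Oasl2 counted 1.00, 0.755, 0.693 and 0.813 CPM in the lymph node libraries, 36.3, 35.3 and 32.9 in the pTreg libraries and 38.9, 37.3, 42.0, 36.7 and 37.2 in the tTreg libraries. The 3 groups did not overlap for either gene, and lymph node Treg was lowest for both. Oasl1 was 27.4-fold and 34.8-fold higher in tumor pTreg and tTreg than in lymph node Treg (log2 4.78 ± 0.077 and 5.12 ± 0.069 SE, adjusted p = 2.66e-29 and 2.12e-31). Oasl2 was 45.4-fold and 49.9-fold higher (adjusted p = 5.05e-27 and 2.01e-28), from 54 counts over the 4 lymph node libraries. Between the tumor groups Oasl1 was 1.27-fold lower in pTreg (adjusted p = 3.61e-08) and Oasl2 1.10-fold lower (adjusted p = 0.0279), and the Oasl2 call was lost without tumor pTreg replicate 2, without tumor pTreg replicate 3 and without tumor tTreg replicate 3 (log2 -0.14, -0.10 and -0.10).

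Oas3, which makes the oligoadenylate signal for RNase L and lies on chr5:120753098-120777661 beside Oas2 (chr5:120730333-120749853), went the other way. Oas3 was at 29.8, 31.2, 28.9 and 32.0 CPM in the 4 lymph node libraries, 8.80, 9.91 and 10.3 in the 3 pTreg libraries and 6.08, 5.96, 5.94, 5.42 and 3.92 in the 5 tTreg libraries. The 3 groups did not overlap, with the lymph node libraries highest and tTreg lowest. It fell by 1.55 and 2.38 on the log2 scale in tumor pTreg and tTreg (adjusted p = 2.78e-16 and 1.38e-21). Against tTreg it was 1.78-fold higher in pTreg (log2 0.83 ± 0.10 SE, adjusted p = 1.13e-07), the widest difference of any member there. Oas1a and Oas2 make the same signal. Oas1a rose from 13.8 ± 1.24 CPM in lymph node Treg to 30.2 ± 0.712 in pTreg and 32.1 ± 2.01 in tTreg of the tumor, or 2.35-fold and 2.49-fold. Oas2 differed less, at 23.2 ± 1.66 CPM in lymph node Treg, 25.8 ± 0.380 in pTreg and 25.3 ± 1.56 in tTreg of the tumor. With TMM factors applied it was called 1.19-fold and 1.17-fold higher, more than the printed CPM differ. Its tTreg libraries (22.6 to 26.5 CPM) overlapped the lymph node libraries (21.5 to 25.1 CPM).

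The Ifit genes, whose products bind foreign RNA or each other, were lower on the CPM scale in both tumor groups, higher per pan-T count, and lie together on chromosome 19. Ifit1 was at 26.9 ± 0.334 CPM in lymph node Treg, 8.34 ± 0.122 in pTreg and 7.25 ± 1.04 in tTreg of the tumor, and it fell by 1.59 and 1.79 on the log2 scale. Ifit3 fell by 1.06 and 0.95, and Ifit2 by 0.49 and 0.39. Isg20, an RNA exonuclease, was at 23.7 ± 1.04 CPM in lymph node Treg, 11.97 ± 0.687 in pTreg and 7.39 ± 0.478 in tTreg of the tumor. Its 1.63-fold higher level in tumor pTreg than in tTreg (adjusted p = 1.36e-08) was next in size to that of Oas3. The 50-base words of Ifit3 were shared with Ifit3b for 51.2% and those of Oas1a with Oas1g for 57.6%, so reads could be split between those copies. Summed with Ifit3b, the Ifit3 level was 27.7 ± 0.369, 11.9 ± 1.26 and 12.5 ± 0.663 CPM, and Oas1a with Oas1g was at 13.9 ± 1.11, 41.4 ± 0.747 and 45.1 ± 1.87 CPM, in the same order of groups.

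Of the 9 other antiviral genes, 5 were higher and 4 lower in each tumor group than in lymph node Treg on the CPM scale, near the shares over all tested genes (47.6% higher and 39.8% lower in pTreg). Per pan-T count all 9 were higher, as were 91.5% and 96.8% of all tested genes. Rsad2 (viperin), which makes a chain-terminating nucleotide, and Cmpk2, a mitochondrial nucleotide kinase, are neighbours on chr12:26442746-26456452 and chr12:26469204-26479837 and moved in opposite directions. The 4 lymph node libraries held Rsad2 at 5.35, 4.39, 5.48 and 5.35 CPM, the 3 pTreg libraries at 63.3, 64.9 and 63.9 and the 5 tTreg libraries at 77.3, 81.1, 77.1, 77.6 and 82.3. The 3 groups did not overlap, with tumor tTreg highest. Rsad2 was 13.3-fold and 16.3-fold higher in tumor pTreg and tTreg than in lymph node Treg (adjusted p = 5.24e-29 and 3.40e-31) and 1.23-fold lower in pTreg than in tTreg (adjusted p = 1.02e-07). Cmpk2 fell from 11.5 ± 0.812 CPM in lymph node Treg to 7.89 ± 0.199 in pTreg and 6.81 ± 0.223 in tTreg of the tumor, a fall by 0.44 and 0.65 on the log2 scale.

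Ifi27l2a, a small interferon-induced membrane protein, was the most abundant member per length in lymph node Treg and fell in the tumor. Ifi27l2a counted 105, 104, 117 and 112 CPM in the lymph node libraries, 31.5, 30.8 and 30.8 in the pTreg libraries and 21.7, 24.2, 24.7, 26.3 and 25.6 in the tTreg libraries. The groups did not overlap, and tTreg was lowest. It fell by 1.72 and 2.07 on the log2 scale (adjusted p = 1.69e-22 and 4.58e-26) and was 1.27-fold higher in pTreg than in tTreg (adjusted p = 1.51e-05). Rtp4, a receptor chaperone, fell by 1.34 and 1.04. Usp18, which removes Isg15 from proteins and damps the type I receptor, fell by 0.65 and 0.39. Of the Rtp4 exon bases 13.9% lie under Gm45338 on the same strand, which makes its count less certain.

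The genes that rose beside Rsad2 were Isg15, Bst2 (tetherin, which holds budding virions), Ifi44 and, by less, the antiviral GTPase Mx1. Isg15 was at 10.2 ± 1.11 CPM in lymph node Treg, 27.1 ± 1.59 in pTreg and 29.3 ± 2.83 in tTreg of the tumor, or 2.85-fold and 3.06-fold higher than in lymph node Treg. Bst2 was at 28.4 ± 3.88 CPM in lymph node Treg, 52.9 ± 1.48 in pTreg and 62.5 ± 2.80 in tTreg of the tumor, and Ifi44 at 1.25 ± 0.358 CPM in lymph node Treg, 8.24 ± 0.532 in pTreg and 9.14 ± 0.428 in tTreg of the tumor, or 7.02-fold and 7.75-fold higher. Mx1 was at 11.9 ± 0.866 CPM in lymph node Treg, 13.3 ± 0.748 in pTreg and 12.6 ± 0.339 in tTreg of the tumor. With TMM factors applied it was called at adjusted p = 0.00207 for pTreg and 0.0137 for tTreg. The tTreg call was lost without lymph node Treg replicate 1 and without lymph node Treg replicate 3 (log2 0.14 and 0.15). Between the tumor groups Bst2, Rsad2, Usp18 and Rtp4 were lower in pTreg, by 1.17, 1.23, 1.20 and 1.23-fold, Ifi27l2a and Cmpk2 were higher, and Isg15, Ifi44 and Mx1 were not called. The Cmpk2 call there was lost without tumor pTreg replicate 1 or 3 and without tumor tTreg replicate 1, 2 or 4 (log2 0.20 to 0.22), and Isg15 was called lower without tumor tTreg replicate 1 (log2 -0.15).

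The 2 sensors moved in opposite directions. Zbp1, which senses Z-form nucleic acid and can start necroptosis, was lower in the tumor. Ifih1 (MDA5), which senses long double-stranded RNA, was higher. Zbp1 was at 150.4, 149, 142 and 143 CPM in the 4 lymph node libraries, 38.6, 40.6 and 38.4 in the 3 pTreg libraries and 29.6, 35.5, 30.6, 33.4 and 35.6 in the 5 tTreg libraries. The 4 lymph node libraries held Ifih1 at 47.8, 46.8, 48.8 and 51.0 CPM, the 3 pTreg libraries at 92.9, 99.8 and 95.9 and the 5 tTreg libraries at 107, 107, 103, 109.8 and 108. The groups did not overlap for either gene. Zbp1 fell by 1.79 and 2.05 on the log2 scale (adjusted p = 8.89e-24 and 5.67e-27), and Ifih1 was 2.13-fold and 2.35-fold higher (adjusted p = 1.15e-20 and 1.91e-23). Between the tumor groups Zbp1 was 1.20-fold higher (adjusted p = 1.74e-04) and Ifih1 1.11-fold lower in pTreg (adjusted p = 6.50e-04).

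Guanylate-binding proteins are large GTPases that coat microbes and their vacuoles. Against lymph node Treg, 6 of the 8 were lower on the CPM scale in tumor pTreg and 7 in tumor tTreg, all of them higher per pan-T count, and Gbp3 was higher on both scales. Of all tested genes, 39.8% and 42.3% were called lower on the CPM scale in pTreg and tTreg. Per pan-T count, 91.5% and 96.8% of all tested genes were called higher. The genes lie in clusters on chromosome 3 (Gbp2, Gbp3, Gbp5, Gbp7) and chromosome 5 (Gbp4, Gbp6, Gbp8, Gbp9), so the gene that rose has neighbours that fell. Gbp3 counted 106, 110.5, 101 and 102 CPM in the lymph node libraries, 381, 377 and 374 in the pTreg libraries and 457, 450.2, 446, 451 and 444 in the tTreg libraries. Every tumor library was above every lymph node library, and every tTreg library above every pTreg library. Gbp3 was 3.87-fold and 4.59-fold higher in tumor pTreg and tTreg than in lymph node Treg (log2 1.95 ± 0.031 and 2.20 ± 0.028 SE, adjusted p = 2.11e-29 and 8.44e-32) and 1.19-fold lower in pTreg than in tTreg (adjusted p = 1.36e-08).

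Gbp6 was at 326, 322, 318 and 323 CPM in the 4 lymph node libraries, 144, 152 and 143 in the 3 pTreg libraries and 112, 112, 112, 113 and 116 in the 5 tTreg libraries. The order was reversed from that of Gbp3, and the groups again did not overlap. Gbp6 fell by 1.04 and 1.42 on the log2 scale and was 1.301-fold higher in pTreg than in tTreg (adjusted p = 1.07e-11). Gbp6 shared 90.2% of its 50-base words with Gm43302, which overlaps it on the same strand, and with that gene's counts added its level was 332 ± 4.60, 147 ± 4.40 and 115 ± 1.45 CPM. Gbp4, Gbp5, Gbp7 and Gbp9 fell by 1.11, 1.51, 1.05 and 1.28 in tumor pTreg, and by 1.19, 1.79, 1.35 and 1.56 in tumor tTreg. Of the 8, 6 were higher in tumor pTreg than in tTreg, from 1.06-fold for Gbp4 to 1.301-fold for Gbp6, where 26.8% of all tested genes were called higher. The Gbp4 call was lost without tumor pTreg replicate 2, without tumor pTreg replicate 3, without tumor tTreg replicate 4 and without tumor tTreg replicate 5 (log2 0.06, 0.06, 0.08 and 0.08). Gbp8 was at 150.1 ± 4.70 CPM in lymph node Treg, 139 ± 4.87 in pTreg and 129.6 ± 3.27 in tTreg of the tumor. With TMM factors applied, its log2 difference between tumor pTreg and lymph node Treg was -0.0050 (adjusted p = 0.891), smaller than the printed CPM differ. Gbp2 was at 163 ± 3.93 CPM in lymph node Treg, 115 ± 3.26 in pTreg and 116 ± 2.39 in tTreg of the tumor and did not pass the test between the tumor groups (adjusted p = 0.966).

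All 6 immunity-related GTPases were lower on the CPM scale in each tumor group than in lymph node Treg, and higher per pan-T count. Of all tested genes, 39.8% and 42.3% were called lower in CPM in pTreg and tTreg, and 91.5% and 96.8% higher per pan-T count. This family has regulators (Irgm1, Irgm2, Igtp), which protect host membranes, and effectors (Iigp1, Tgtp1, Tgtp2), which attack parasite vacuoles. The 4 lymph node libraries held Igtp at 215, 204, 209 and 205 CPM, the 3 pTreg libraries at 58.6, 61.8 and 64.3 and the 5 tTreg libraries at 44.7, 41.8, 44.8, 42.1 and 45.7. The groups did not overlap, with lymph node Treg highest and tTreg lowest. Igtp, on chr11:58199556-58207591, fell by 1.65 and 2.15 on the log2 scale (adjusted p = 1.63e-25 and 6.96e-30) and was 1.41-fold higher in pTreg than in tTreg (adjusted p = 3.09e-11). Irgm2, which overlaps Igtp on the same strand for 4.39% of its exon bases, fell by 1.38 and 1.20 and was 1.13-fold lower in pTreg than in tTreg (adjusted p = 0.00231). Igtp and Irgm2, which both hold a GAS and an ISRE match that start 11 bases apart in the printed sequences, differed in sign between the tumor groups. Irgm1 fell by 0.44 and 0.40 and Iigp1 by 0.36 and 0.25.

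Tgtp1 and Tgtp2 are near-identical copies that share 89.4% and 89.8% of their 50-base words, so their reads may have been split by the counting. Tgtp1 was at 90.0 ± 3.26 CPM in lymph node Treg, 41.1 ± 3.17 in pTreg and 50.1 ± 2.01 in tTreg of the tumor, and Tgtp2 at 122 ± 3.73 CPM in lymph node Treg, 54.3 ± 2.26 in pTreg and 48.7 ± 1.32 in tTreg of the tumor. Tgtp1 was called 1.21-fold lower and Tgtp2 1.12-fold higher in pTreg than in tTreg (adjusted p = 1.42e-05 and 0.00137). Their summed level was 212 ± 4.11, 95.4 ± 0.975 and 98.8 ± 2.28 CPM in the 3 groups, and the sum did not pass the test between the tumor groups (log2 -0.04, adjusted p = 0.262). The single calls of the copies between the tumor groups are therefore uncertain, while both copies and their sum were lower in the tumor than in the lymph node.

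Per transcript length, the members' order changed between lymph node and tumor. FPKM values, which are scaled to transcript length and library size, let genes be compared with each other. In lymph node Treg, Ifi27l2a led with 712 FPKM, followed by Irf1 at 164 and Igtp at 124. Ifi27l2a held 30.5% of the FPKM summed over the 39 members there. Its longest coding transcript has only 463 bases, and in CPM it stood at 109.7 in lymph node Treg, below Gbp4 at 348. In tumor pTreg the leading genes were Ifi27l2a at 199, Gbp3 at 161, Irf1 at 158 and Bst2 at 109.9 FPKM. In tumor tTreg Gbp3 led with 193 FPKM, ahead of Ifi27l2a at 163. Gbp3 thus went from rank 17 of 39 in lymph node Treg to rank 2 in pTreg and 1 in tTreg, and Igtp from rank 3 to ranks 14 and 16. The lowest members were Oasl2 at 0.438 FPKM in lymph node Treg and Oas3 at 2.25 and 1.28 FPKM in tumor pTreg and tTreg.

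**Figure D4:**
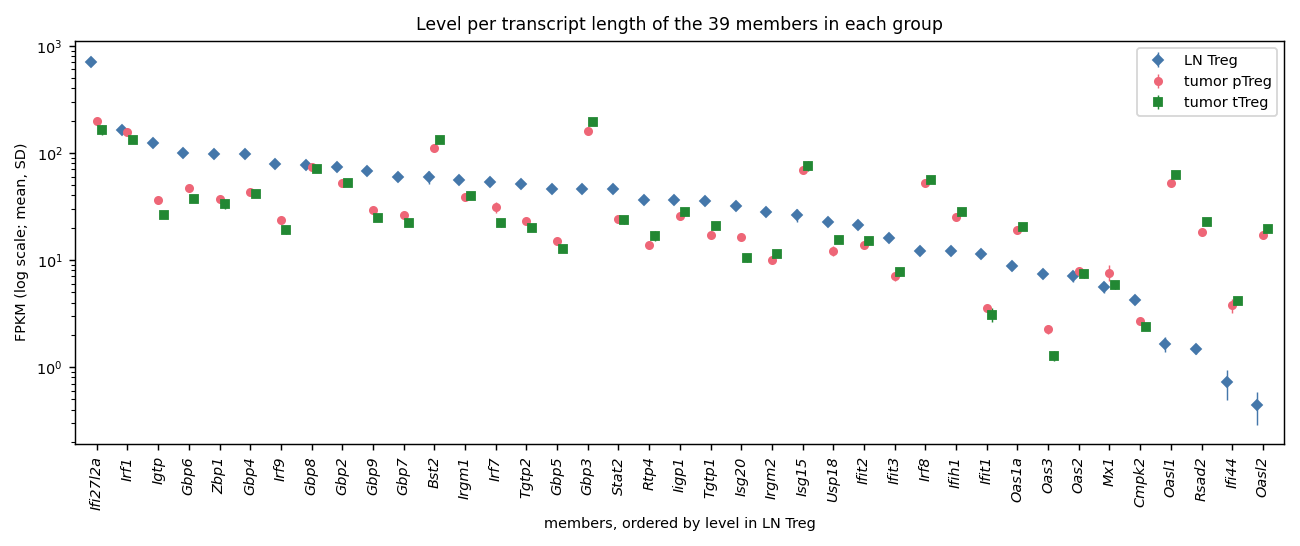
Mean FPKM of each member in the 3 groups, with SD bars, on a log axis, in the order of the lymph node level. Ifi27l2a falls from 712 FPKM in lymph node Treg to 199 in tumor pTreg and 163 in tumor tTreg, while Gbp3 goes from 45.7 to 161 and 193.

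A second scale, counts per pan-T count, gave all members the same direction within a comparison. Here the library size was the summed count of the 18 pan-T genes in place of the library total. All 39 members were higher per pan-T count in tumor pTreg than in lymph node Treg, where 91.5% of all tested genes were called higher, and in tumor tTreg than in lymph node Treg, where 96.8% were. All 39 were lower in tumor pTreg than in tTreg, where 97% of all tested genes were called lower. The members' median log2 fold changes were 1.56, 4.87 and -3.29, beside 2.32, 5.63 and -3.33 over all tested genes. The smallest differences between tumor pTreg and lymph node Treg were those of Zbp1, Ifi27l2a and Igtp. Zbp1 was at 2.17 ± 0.0717 counts per 100 pan-T counts in lymph node Treg, 2.90 ± 0.0749 in pTreg and 24.2 ± 2.05 in tTreg of the tumor. Igtp was at 3.09 ± 0.0877, 4.55 ± 0.187 and 32.2 ± 1.31, and Ifi27l2a at 1.63 ± 0.0847, 2.29 ± 0.0510 and 18.0 ± 1.00. The calls of Zbp1 and Ifi27l2a in tumor pTreg against lymph node Treg were lost when a smaller subset of the pan-T genes set the scale. Gbp3, by contrast, went from 1.56 ± 0.0684 to 27.9 ± 0.436 and 330.2 ± 10.4 counts per 100 pan-T counts. The members that were lower in the tumor on the CPM scale were thus higher per pan-T count.

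**Figure D5:**
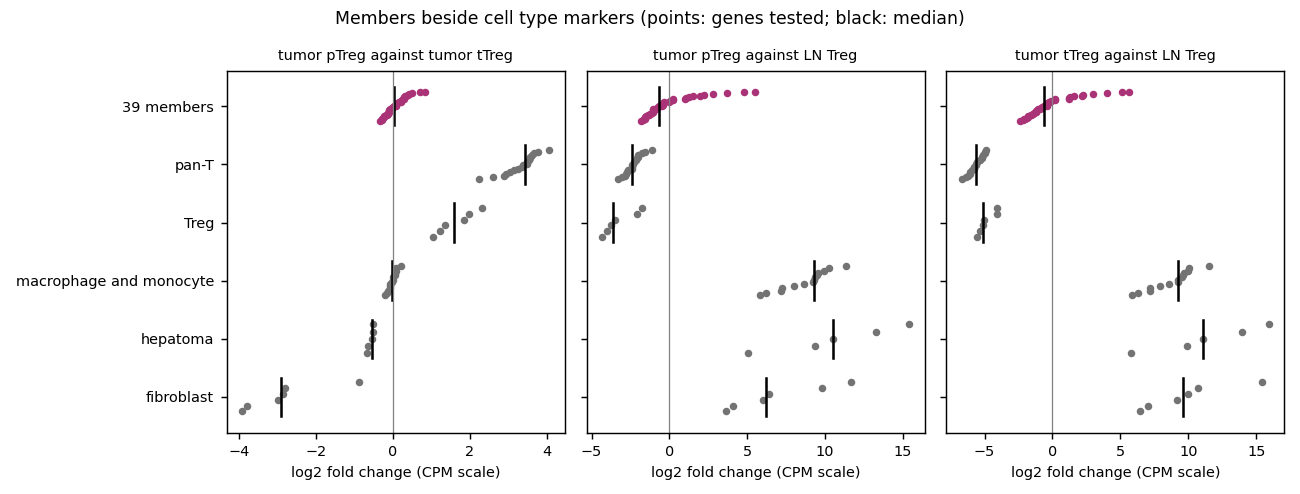
Log2 fold change (CPM scale) of each member and of each tested gene of 5 marker lists in the 3 comparisons, with points for genes and a black line at the list's median. Between the tumor groups the members' median was 0.03, beside -0.01 over all tested genes. The medians of the lists were 3.44 for pan-T, 1.60 for Treg, -0.01 for macrophage, -0.54 for hepatoma and -2.91 for fibroblast genes. The source of the members' values was not tested.

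The ligands of the pathway were mostly near or at 0. Of 21 interferon genes listed, 2 had counts enough for the test: Ifng, the interferon-gamma gene, and Ifnb1, the interferon-beta gene. Ifng was at 13.8 ± 1.28 CPM in lymph node Treg, 102.6 ± 1.69 in pTreg and 2.81 ± 0.534 in tTreg of the tumor. It was 7.98-fold higher in tumor pTreg than in lymph node Treg, fell by 2.20 on the log2 scale from lymph node to tumor tTreg, and differed by 5.19 on the log2 scale between the tumor groups (adjusted p = 2.85e-29). Ifng was also higher in pTreg per pan-T count, 3.67-fold against tTreg, while against lymph node Treg it was higher in both tumor groups on that scale. The NK gene sum given above was highest in pTreg, mainly through Eomes (16.4 CPM there, against 0.902 and 0.208 in lymph node Treg and tTreg). Ncr1 was at 0 in pTreg. Per pan-T count, 4 of 6 Treg genes were lower, 1 higher and 1 not called in pTreg against lymph node Treg. Of all tested genes, 91.5% were called higher there. All 6 were lower in pTreg than in tTreg on that scale, as were 97% of all tested genes. The part of NK cells, of the transferred conventional T cells or of other cells in the Ifng values was not tested. Ifnb1 had 0 counts in the lymph node, 47 over the 3 pTreg libraries and 115 over the 5 tTreg libraries, at least 19.1-fold and 27.7-fold higher than a floor of 3 counts over the lymph node group. The log2 difference of Ifnb1 between the tumor groups, -0.53 ± 0.27 (SE), did not pass the test (adjusted p = 0.106). Ifna2 had 6 and 7 counts in the tumor groups and 0 in the lymph node, Ifnz had 4, 0 and 2, Ifna1 and Ifnl2 had 1 each in pTreg, and the other ligand genes had none.

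Receptor chains and signal carriers were mostly lower in the tumor on the CPM scale, and higher per pan-T count. Of 15 such genes, 10 were lower and 4 higher in CPM in each tumor group than in lymph node Treg, where 39.8% and 42.3% of all tested genes were called lower in pTreg and tTreg. In pTreg 10 were higher and 3 lower than in tTreg, where 26.8% and 25.3% of all genes were so called. Per pan-T count all 15 were higher in each tumor group than in lymph node Treg and lower in pTreg than in tTreg. Of all tested genes, 91.5% and 96.8% were called higher and 97% lower in these comparisons. Jak1, a kinase of both pathways, was at 955 ± 22.6, 299 ± 3.64 and 188 ± 4.78 CPM. Ifngr1 was at 327 ± 6.24, 284 ± 5.52 and 133 ± 5.27 CPM, 2.15-fold higher in tumor pTreg than in tTreg (log2 1.10, adjusted p = 5.45e-22). Ifngr2 was at 43.6 ± 2.63, 47.5 ± 0.412 and 50.6 ± 1.75 CPM, Ifnar1 at 243 ± 6.44, 174 ± 4.81 and 154 ± 4.02, and Ifnar2 at 80.3 ± 1.78, 69.2 ± 2.44 and 74.6 ± 2.55. Ifnlr1, the interferon-lambda receptor chain, had 2 counts over the lymph node libraries against 13.7 ± 0.828 and 18.0 ± 1.35 CPM in tumor pTreg and tTreg, ratios of 452 and 593 with 95% counting intervals of 125 to 3742 and 164 to 4905. Socs1, an inhibitor of Jak signalling, was at 43.4 ± 2.81, 10.4 ± 0.715 and 3.62 ± 0.690 CPM.

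Among 60 further type I induced genes, 43 were lower and 15 higher on the CPM scale in tumor pTreg than in lymph node Treg (39.8% and 47.6% of all tested genes). In tTreg 44 were lower and 15 higher (42.3% and 48.1%), and between the tumor groups 39 were higher and 7 lower in pTreg (26.8% and 25.3%). Per pan-T count most directions turned: 41 were higher and 15 lower in pTreg and 58 higher and 0 lower in tTreg than in lymph node Treg, and all 60 were lower in pTreg than in tTreg. On that scale 91.5% and 96.8% of all tested genes were called higher in pTreg and tTreg, and 97% lower between the tumor groups. Shisa5 and Samhd1, a nucleotide hydrolase, fell by 2.61 and 2.40 on the log2 scale in tumor pTreg and were lower there per pan-T count too, while Ifi207 and Ifitm3, a membrane protein that blocks virus entry, were higher by 7.43 and 6.59 on the log2 scale. Of 12 other induced GTPases, 7 were lower and 4 higher in tumor pTreg and 8 lower and 4 higher in tumor tTreg than in lymph node Treg on the CPM scale, beside the same shares of all genes. Per pan-T count 8 were higher and 4 lower in pTreg, and all 12 higher in tTreg. Gvin1, a giant GTPase, fell by 2.83 on the log2 scale and Ifi47 by 1.95 in tumor pTreg, and Gbp2b was higher by 2.93. Of 7 other interferon regulatory factors, 5 were lower and 2 higher in CPM in tumor pTreg than in lymph node Treg (39.8% and 47.6% of all tested genes). In tumor tTreg 4 were lower, 2 higher and 1 not called (42.3% and 48.1% of all tested genes lower and higher). Per pan-T count all 7 were higher in pTreg, as were 91.5% of all tested genes. Irf5, a factor prominent in macrophages, was 7.27-fold higher, and Irf4, which effector Treg use, was at 118 ± 3.34, 67.3 ± 3.81 and 24.4 ± 1.499 CPM.

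Among 16 tested genes of nucleic acid sensing, 8 were higher and 7 lower in CPM in tumor pTreg than in lymph node Treg, near the shares over all tested genes (47.6% and 39.8%). Per pan-T count 15 were higher and 1 lower, where 91.5% of all tested genes were called higher. Ikbke, a kinase that activates Irf3, fell by 2.35 on the log2 scale, and Tlr9, the DNA receptor of endosomes, rose from 0.741 ± 0.190 to 21.5 ± 1.90 CPM. Among 27 interferon-gamma response and antigen presentation genes, 15 were higher and 12 lower in CPM in each tumor group than in lymph node Treg, also near those shares. In pTreg 13 were higher and 8 lower than in tTreg (26.8% and 25.3% of all genes). Per pan-T count all 27 were higher in each tumor group than in lymph node Treg and lower in pTreg than in tTreg. The shares of all tested genes so called were 91.5% and 96.8% higher, and 97% lower. The class II gene H2-Ab1 and its chaperone Cd74 were higher by 7.23 and 6.08 on the log2 scale in tumor pTreg than in lymph node Treg, beside the macrophage and dendritic cell sums given above, whose part in these values was not tested. Nlrc5, the activator of class I genes, fell by 1.82 there and was 1.98-fold higher in tumor pTreg than in tTreg. The chemokine Ccl5 was 8.05-fold higher in CPM in tumor pTreg than in tTreg (adjusted p = 2.31e-25) but 1.24-fold lower per pan-T count (adjusted p = 6.9e-05). The NK gene sum was also higher in pTreg than in tTreg, mainly through Eomes. Of the 3 NK genes tested there, 2 were higher and 1 was not called, and Ncr1 was at 0 in pTreg. The part of NK cells or of other cells in the Ccl5 value was not tested.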

How the data were processed

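RNA-seq was deposited as a table of expected counts and a table of FPKM for the same 12 libraries. Per the submitters' processing notes, STAR 2.7.11a and RSEM 1.3.3 were used with GRCm38/mm10 and an annotation not given in the sources used here, and DESeq2 was named. Total RNA was extracted with TRIzol and read on BGISEQ-500, per the labels' protocols. The deposited expected counts were already whole numbers (100%) and entered the tests unrounded. The deposited FPKM values, scaled by the authors to transcript length and library size, were used for comparing genes and in alternatives.

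Tests used edgeR 4.0.16 in R 4.3.3: quasi-likelihood fits of all 12 libraries with group as the factor, TMM factors and filterByExpr. This left 15705 of 55413 genes, and p-values were Benjamini-Hochberg adjusted over them, with calls at 0.05. The same fit was repeated with library size set to 18 pan-T genes. Alternatives used limma 3.58.1 and DESeq2 1.42.0, and the scripts were tested on simulated data. The 39 members, the other lists and the second scale were chosen with earlier results of these data known. Library values are printed for the member with the highest mean FPKM and those with the largest fold change of each role class; Ifih1, Irf9 and others beyond that rule were chosen after their values were seen. Further genes of the pathway are given as counts, with some of the 3 of smallest p per list and comparison, all detected ligands and the receptor chains, plus Socs1, Gbp2b, Ifi47, Irf5 and Tlr9. Replicate pairs differed by more than sampling noise (1.65 to 3.97 chi-square units for each degree of freedom), so none was merged. Library totals ran from 14573864 to 18510923 counts. Intervals and floors cover counting error only. Positions are from GENCODE vM21 and promoters from RefSeq on GRCm38.p6. Some genes counted in the lists and sums are not reported here by name.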

Additional observations from a re-analysis of the deposited data

Results flagged for a closer look

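Among 78 groups of 4 or 5 libraries of a member, 5 held a library whose gap to the next was wide for the group's range by Dixon's test at 95%. Chance gives about 1 in 20. In tumor tTreg, Irf9 was at 39.8 CPM in replicate 4, against 42.9 to 44.0 in the others. Oas2 was at 22.6 CPM in tumor tTreg replicate 2, against 25.6 to 26.5. Rsad2 was at 4.39 CPM in lymph node Treg replicate 2, against 5.35 to 5.48. Gbp4 was at 147 CPM in tumor tTreg replicate 1, against 140.2 to 142. Gbp6 was at 116 CPM in tumor tTreg replicate 5, against 112 to 113. None of these libraries lay among the values of another group for Irf9, Rsad2 or Gbp6.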

How the results depend on the processing

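Of the values of single members recomputed under other settings, 3325 kept their side of the threshold and, where called, their direction. A further 70 lost a call, 11 gained one and 2 reversed with a call in at least 1 of the fits compared. A change of sign with no call in either fit was counted as kept. The reversals were Irf1 between tumor pTreg and lymph node Treg, -0.079 on the log2 scale with library totals only, and Tgtp2 between the tumor groups, -0.044 with near copies summed, a setting chosen after seeing the data. The Tgtp2 value under that setting is that of the sum of Tgtp1 and Tgtp2 given above. The Irf1 setting differs from the main fit only in leaving out the TMM factors. The members called lower in tumor pTreg than in tTreg were 7 in place of 12 with limma-trend on log2(FPKM + 0.1), the cause of which was not tested, and 13 were called in each direction with RLE factors and with DESeq2. Leaving out each library in turn gave 14 to 16 members higher and 10 to 12 lower between the tumor groups, 12 higher and 25 lower in tumor pTreg against lymph node Treg, and 11 to 12 higher and 27 lower in tumor tTreg against lymph node Treg. Per pan-T count these counts were 39 in 1 direction and 0 in the other in every such fit. Between the tumor groups, Ifit2, Iigp1, Cmpk2, Gbp4 and Oasl2 lost their call without at least 1 library. The Ifit2 call was lost without tumor pTreg replicates 1 and 3 and tTreg replicates 2 and 5 (log2 -0.07 to -0.10), and that of Iigp1 without pTreg replicates 1 and 2 and tTreg replicates 1, 2 and 4 (log2 -0.08 to -0.11). Ifit1 was called higher without tTreg replicate 4 or 5 (log2 0.29 and 0.24). Same-numbered tumor libraries had deviations from their group means correlated at -0.14, -0.01 and -0.06, and differently numbered ones at -0.11 to 0.17. No pairing by replicate number was seen, but so few libraries cannot exclude it. With the replicate block, 15 members were higher and 11 lower between the tumor groups, 12 and 25 in tumor pTreg and 12 and 27 in tumor tTreg against lymph node Treg.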
